A study of Mus musculus with 12 samples.

Results

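Extracellular nucleotide signalling was described through 9 genes, namely the receptors P2rx4, P2rx7, P2ry1, P2ry6, P2ry14 and Adora1 and the ectonucleotidases Entpd1, Entpd2 and Nt5e. The members were found by symbol in the platform annotation of the arrays, and 8 of the 9 genes had a probe set of their own. These were 17 of the 45101 probe sets, and none of them carried a further symbol. Adora1, the Gi-coupled A1 adenosine receptor, had no probe set of its symbol in the annotation used and has no value here.

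Astrocytes of the lumbar spinal cord had been cut out of frozen sections by laser capture and their amplified RNA put on arrays, in 4 groups of 3 male mice with 1 array per mouse. SOD1 G93A mice, called transgenic here, carry a mutant human SOD1 transgene and develop a motor neuron disease that models amyotrophic lateral sclerosis. The line was B6SJL-Tg (SOD1 G93A) 1 Gur/J, moved by backcrossing to C57Bl/6 J Ola/Hsd, and littermates without the transgene (NTg) were the controls. Mice were taken at 90 days, the symptomatic stage, and at 120 days, the late stage, and different mice were used at each age. By the labels, 1500 astrocytes were captured from each animal, which makes each array a bulk sample. In such a sample fewer cells of a type and less RNA per cell cannot be told apart. The paper found microglial and neuronal markers after capture and describes the RNA as coming from mixed cells, astrocytes being a significant part.

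ATP released from cells acts on P2X receptors, which are ATP-gated cation channels, and ATP, ADP, UDP and UDP-sugars act on G protein coupled P2Y receptors. Ectonucleotidases on the cell surface take the nucleotides down step by step, with CD39, the product of Entpd1, turning ATP and ADP into AMP and CD73, the product of Nt5e, turning AMP into adenosine, which then acts on adenosine receptors. In the spinal cord astrocytes release and sense ATP, and microglia are known for P2X4, P2X7, P2Y6, P2Y12 and CD39.

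The starts of the genes whose values are described most closely are shown here as the 250 bases upstream of a RefSeq start (GRCm38.p6). Capitals mark the CCAAT box (letters CCAAT), the GC box (letters GGGCGG) and the core bound by ETS factors such as PU.1 (letters GAGGAA), each on either strand. The TATA box (letters TATAAA) was searched in the same way. None of the matches in the windows shown overlapped another. These starts all lie on the plus strand.
Entpd1 first start, chr19:40612116-40612365: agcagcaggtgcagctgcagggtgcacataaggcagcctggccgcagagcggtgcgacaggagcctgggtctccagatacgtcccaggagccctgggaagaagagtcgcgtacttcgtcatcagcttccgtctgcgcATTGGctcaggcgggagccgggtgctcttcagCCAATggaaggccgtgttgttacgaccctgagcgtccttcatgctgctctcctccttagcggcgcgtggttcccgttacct
Entpd1 second start, chr19:40659520-40659769: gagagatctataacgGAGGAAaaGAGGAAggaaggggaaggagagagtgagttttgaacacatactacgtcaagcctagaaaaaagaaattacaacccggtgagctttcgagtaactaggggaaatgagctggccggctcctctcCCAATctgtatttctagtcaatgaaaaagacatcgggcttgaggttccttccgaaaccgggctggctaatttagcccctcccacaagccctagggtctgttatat
P2rx4, chr5:122707294-122707543: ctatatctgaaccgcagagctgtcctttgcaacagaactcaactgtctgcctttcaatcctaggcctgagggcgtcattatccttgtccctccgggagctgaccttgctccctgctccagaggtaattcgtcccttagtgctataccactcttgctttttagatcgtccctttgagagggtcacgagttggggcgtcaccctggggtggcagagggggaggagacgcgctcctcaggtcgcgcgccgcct
P2rx7 first start, chr5:122643677-122643926: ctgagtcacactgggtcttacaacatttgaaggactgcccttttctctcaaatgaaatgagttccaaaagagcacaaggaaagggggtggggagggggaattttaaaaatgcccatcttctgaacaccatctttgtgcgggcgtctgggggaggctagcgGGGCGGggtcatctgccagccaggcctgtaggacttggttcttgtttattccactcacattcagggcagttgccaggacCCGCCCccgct
The first Entpd1 window held 2 CCAAT boxes, and the second held 2 GAGGAA matches and 1 CCAAT box. The P2rx7 window held 2 GC boxes and the P2rx4 window held none of the motifs. Among 32851 RefSeq promoter windows of the same length, 23.3% held a GAGGAA match, 33.8% a CCAAT box, 32.7% a GC box and 12.4% a TATAAA match. Such a match is a string of letters and not a site known to be used. P2rx7 and P2rx4 are neighbours on chromosome 5, with 15181 bases between the end of P2rx7 (122643927 to 122692336) and the start of P2rx4 (122707518 to 122729739), and Entpd1 spans 40612366 to 40741602 on chromosome 19. Of the 9 members, P2ry6 had no entry among the promoter sequences used.

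None of the members passed the test between SOD1 G93A and NTg mice at either age. P2ry6 and the brightest Entpd1 probe set were higher on all 3 SOD1 G93A arrays than on all 3 NTg arrays at both ages. Of all probe sets tested, 5.74% were higher in this way at 90 days and 14% at 120 days. The next Entpd1 probe set lay the other way at 90 days, at a log2 difference of -0.30 (SE 0.32). A probe set was tested where its signal was above the median of its own array on at least 3 arrays, and called where limma's p, adjusted after Benjamini and Hochberg over all 26132 probe sets tested, was under 0.05. Of the 17 member probe sets 9 were tested, and these covered P2rx4, P2rx7, P2ry6, P2ry14, Entpd1 and Entpd2. At 90 days 0 of the 9 were called, and 2 had an unadjusted p under 0.05, as did 5.61% of all probe sets tested. The share called among all probe sets was 0.115% higher and 0.023% lower in SOD1 G93A mice. At 120 days again 0 of the 9 were called, beside 3.6% called higher and 3.86% called lower among all probe sets. An unadjusted p under 0.05 was found for 5 of the 9 there and for 25.8% of all probe sets.

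On the log2 scale the median difference of the 9 tested probe sets was 0.38 at 90 days, against -0.0022 over all probe sets tested, and 6 of the 9 were above 0, as were 49.7% of all probe sets. At 120 days it was 0.59, against -0.07, and 8 of the 9 were above 0, beside 45.5% of all. Since a probe set can pass the filter through the group where it is high, these medians and the counts by unadjusted p are a description only. P2ry6 was above the array median on 3 SOD1 G93A arrays and 1 NTg array at 90 days, and on 2 and 0 at 120 days. Entpd1 1423326_at was so on 3 and 1 at 90 days, and on 3 and 0 at 120 days. Entpd1 1450939_at was so on 0 and 1 at 90 days and on 2 and 0 at 120 days. It thus just met the filter of 3 arrays, through late-stage SOD1 G93A arrays.

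**Figure D1:**
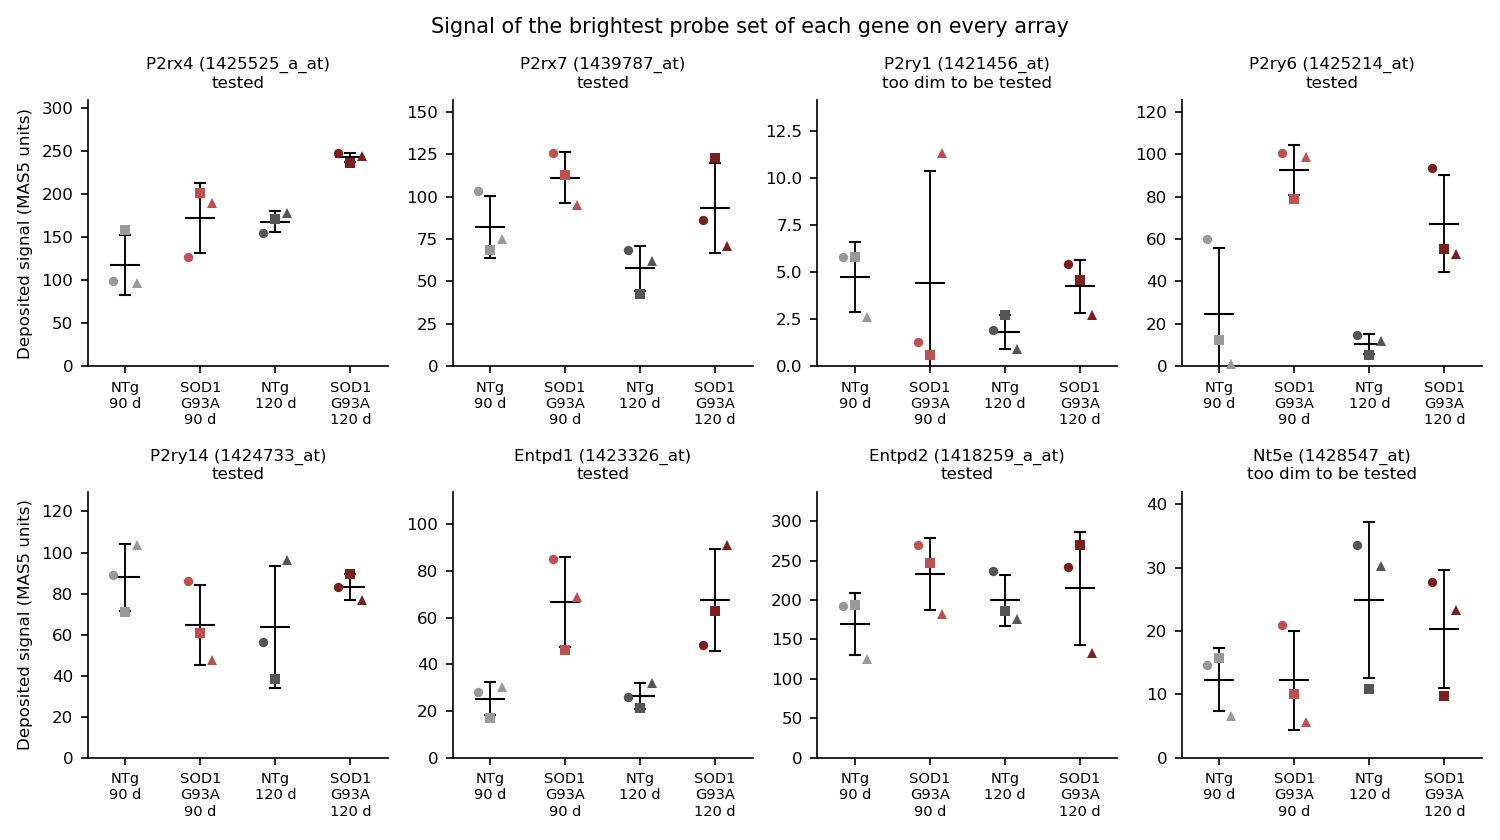
Deposited linear signal (MAS5 units) of the brightest probe set of each gene on the 12 arrays, by group, with points for single arrays (circle, square and triangle for samples 1, 2 and 3) and bars for the mean and SD of 3, cut at 0. P2ry6 sits at 53.1 to 100.5 on SOD1 G93A arrays and at 1.2 to 60.1 on NTg arrays, and P2ry1 and Nt5e are dim in every group.

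P2rx4 encodes an ATP-gated channel of high calcium permeability that is found in microglia and neurons. Its brightest probe set (1425525_a_at) read 98.6, 157.9 and 96.5 on the NTg arrays at 90 days and 126.3, 201.6 and 189.2 on the SOD1 G93A arrays. At the later age it read 154.3, 171.1 and 178.1 on the NTg and 247.2, 236.6 and 244.0 on the transgenic arrays. The groups overlapped at 90 days, while at 120 days every SOD1 G93A array was above every NTg array. The mean signal at 120 days was 242.6 ± 5.44 against 168 ± 12.2 (SD, n = 3). After normalization the fold was 1.43 at 90 days (95% interval 0.973 to 2.10, limma adjusted p = 0.929) and 1.5 at 120 days (1.02 to 2.21, limma adjusted p = 0.169).

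The other P2rx4 probe sets did not move in 1 direction. The probe set 1446429_at read 47.6, 24.2 and 33.9 on NTg arrays and 22.3, 22.6 and 61.9 on transgenic arrays at 90 days, and 69.8, 69.5 and 72.1 against 117.2, 90.8 and 158.8 at 120 days. Its groups overlapped at 90 days and were apart at 120 days, with a log2 difference of -0.14 (SE 0.35) and 0.60 (SE 0.35), neither of them called. The probe set 1441772_at read 24.1, 1.8 and 49.3 on the SOD1 G93A arrays at 120 days, on both sides of the NTg values of 27.3, 33.7 and 36.4. Its log2 difference there was -1.03 (SE 0.45, limma adjusted p = 0.173), opposite in sign to the brightest probe set, and without SOD1 G93A sample 2, which read 1.8, it was -0.35. The dimmest, 1452527_a_at, had mean signals of 6.7 to 26.0 in the 4 groups and was not tested. With the mean of all 4 P2rx4 probe sets on the log2 scale in place of the brightest, the difference was 0.13 at 90 days and 0.24 at 120 days.

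P2rx7 encodes the ATP-gated channel that needs the most ATP to open and is known for inflammasome activation in microglia and macrophages. Its brightest probe set (1439787_at) read 103.1, 68.5 and 75 on NTg arrays and 125.4, 112.9 and 95.1 on transgenic arrays at 90 days. At 120 days the signals were 68.3, 42.5 and 62.1 on the NTg and 86.0, 122.5 and 71.0 on the transgenic arrays. The groups overlapped at 90 days. At 120 days they were apart as deposited and overlapped after normalization. The fold was 1.30 at 90 days (95% interval 0.847 to 1.99) and 1.29 at 120 days (0.843 to 1.98), and these intervals leave room for either direction. Its other 2 probe sets were too dim to be tested. Of these, 1422218_at read 14.5 to 35.9 on 11 arrays and 115.9 on SOD1 G93A sample 3 at 120 days, and 1419853_a_at read 0.4 to 29.2.

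P2ry6 encodes the Gq-coupled UDP receptor, which is known for the phagocytic response of microglia. Its single probe set (1425214_at) read 60.1, 12.4 and 1.2 on the NTg arrays at 90 days, and 100.5, 78.8 and 98.7 on the SOD1 G93A arrays. At 120 days the NTg arrays read 14.6, 5.2 and 11.8 and the SOD1 G93A arrays 93.6, 55.3 and 53.1. The groups were apart at both ages, and the NTg values at 90 days were the most scattered, with a mean signal of 24.6 ± 31.3 (SD, n = 3). The fold between normalized values was 4.34 at 90 days (95% interval 1.85 to 10.2), with a limma adjusted p = 0.337. At 120 days the fold was 3.26 (1.39 to 7.65), with a limma adjusted p = 0.0829. Without NTg sample 1 at 90 days, which read 60.1, the log2 difference was 2.89 in place of 2.12 and the probe set was called (limma adjusted p = 0.0295). Without NTg sample 3 at 90 days, which read 1.2, the difference was 1.38 (limma adjusted p = 0.551), and with array weights it was 1.11 (limma adjusted p = 0.446). The offset added before the log also moved it, to 2.91 with an offset of 1 and to 1.21 with the offset at the median of all values. At the late stage it was also called on the values as deposited, with the offset at the median of all values and with array weights, with limma adjusted p-values of 0.0309, 0.0456 and 0.0459.

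P2ry14 encodes the Gi-coupled receptor of UDP-glucose and other UDP-sugars. Its probe set (1424733_at) read 88.8, 71.2 and 103.7 on NTg arrays and 85.9, 60.9 and 47.6 on transgenic arrays at 90 days. In the late-stage mice it read 56.2, 38.4 and 96.5 on the NTg and 83.4, 89.6 and 76.7 on the transgenic arrays. The groups overlapped at both ages. The log2 difference was -0.47 (SE 0.30) at 90 days and 0.19 (SE 0.30) at 120 days, and the difference between these was 0.66 (SE 0.43, limma adjusted p = 0.636).

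P2ry1, the Gq-coupled ADP receptor, lay near the lower end of the signals on all arrays. Its probe set (1421456_at) read 0.6 to 11.3 and was not tested. The 8 untested member probe sets had signals of 0.4 to 115.9 with a median of 10.9, and 34 of their 96 values were at or below 7, the offset added before the log. With no filter all 17 member probe sets were tested and 0 were called between the genotypes at either age. Low signals do not show that the transcripts were absent.

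Entpd1 encodes CD39, the main enzyme that takes ATP and ADP to AMP on microglia and endothelium. Its brightest probe set (1423326_at) read 28.0, 17.1 and 30.4 on NTg arrays and 85.1, 46.3 and 68.7 on transgenic arrays at 90 days. At 120 days the values were 25.8, 21.3 and 32.2 on the NTg and 48.2, 62.9 and 91.2 on the transgenic arrays. Every SOD1 G93A array was above every NTg array at both ages. The mean signals were 66.7 ± 19.5 against 25.2 ± 7.09 (SD, n = 3) at 90 days and 67.4 ± 21.9 against 26.4 ± 5.48 at 120 days. The fold of normalized values was 2.19 at 90 days (95% interval 1.45 to 3.31), with a limma adjusted p = 0.248, and 1.75 at 120 days (1.16 to 2.65), with a limma adjusted p = 0.0897. On the values as deposited the 120-day difference was called, at a log2 difference of 1.13 (limma adjusted p = 0.0341).

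The next Entpd1 probe set differed from it in sign at 90 days and lay on the same side at 120 days. At 90 days 1450939_at read 23.6, 16.1 and 32.9 on the NTg and 20.7, 13.4 and 23.3 on the transgenic arrays. At 120 days it read 20.3, 24.2 and 12.6 on the NTg and 53.5, 53.3 and 40.0 on the transgenic arrays. As deposited the late-stage groups were apart, but after quantile normalization they overlapped. SOD1 G93A sample 3, the array with the highest median signal (55.2), then lay at 5.04 log2 units, under NTg sample 2 at 5.38. Its log2 difference was -0.30 (SE 0.32) at 90 days and 0.70 (SE 0.32, limma adjusted p = 0.186) at 120 days. The third, 1453586_at, read 5.3 to 37.7 on the 12 arrays and was not tested. With the mean of all 3 probe sets the Entpd1 difference was 0.16 at 90 days and 0.24 at 120 days, on the log2 scale, against 1.13 and 0.81 for the brightest alone.

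Entpd2 encodes the ectonucleotidase that prefers ATP and leaves ADP, and it is known from astrocytes and other glia. Its probe set (1418259_a_at) read 192.0, 193.0 and 124.7 on NTg arrays and 269.8, 246.7 and 182.5 on transgenic arrays at 90 days. At 120 days the signals were 236.8, 186.5 and 176.4 on the NTg and 241.3, 269.6 and 133.0 on the transgenic arrays. The groups overlapped at both ages. The fold was 1.35 at 90 days (95% interval 0.848 to 2.15) and 1.04 at 120 days (0.655 to 1.66), and the sign of the latter turned to a log2 difference of -0.34 with median centring of each array.

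Nt5e, which encodes CD73, was dim on every array. Its brightest probe set (1428547_at) read 14.7, 15.7 and 6.6 on NTg arrays and 20.9, 10.0 and 5.7 on transgenic arrays at 90 days. At the later age it read 33.6, 10.8 and 30.2 on the NTg and 27.8, 9.8 and 23.3 on the transgenic arrays. The groups overlapped at both ages. Its other 2 probe sets read 0.7 to 24.1 and 1.2 to 25.4, and both had their highest value on SOD1 G93A sample 3 at 120 days. None of the 3 was tested.

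**Figure D2:**
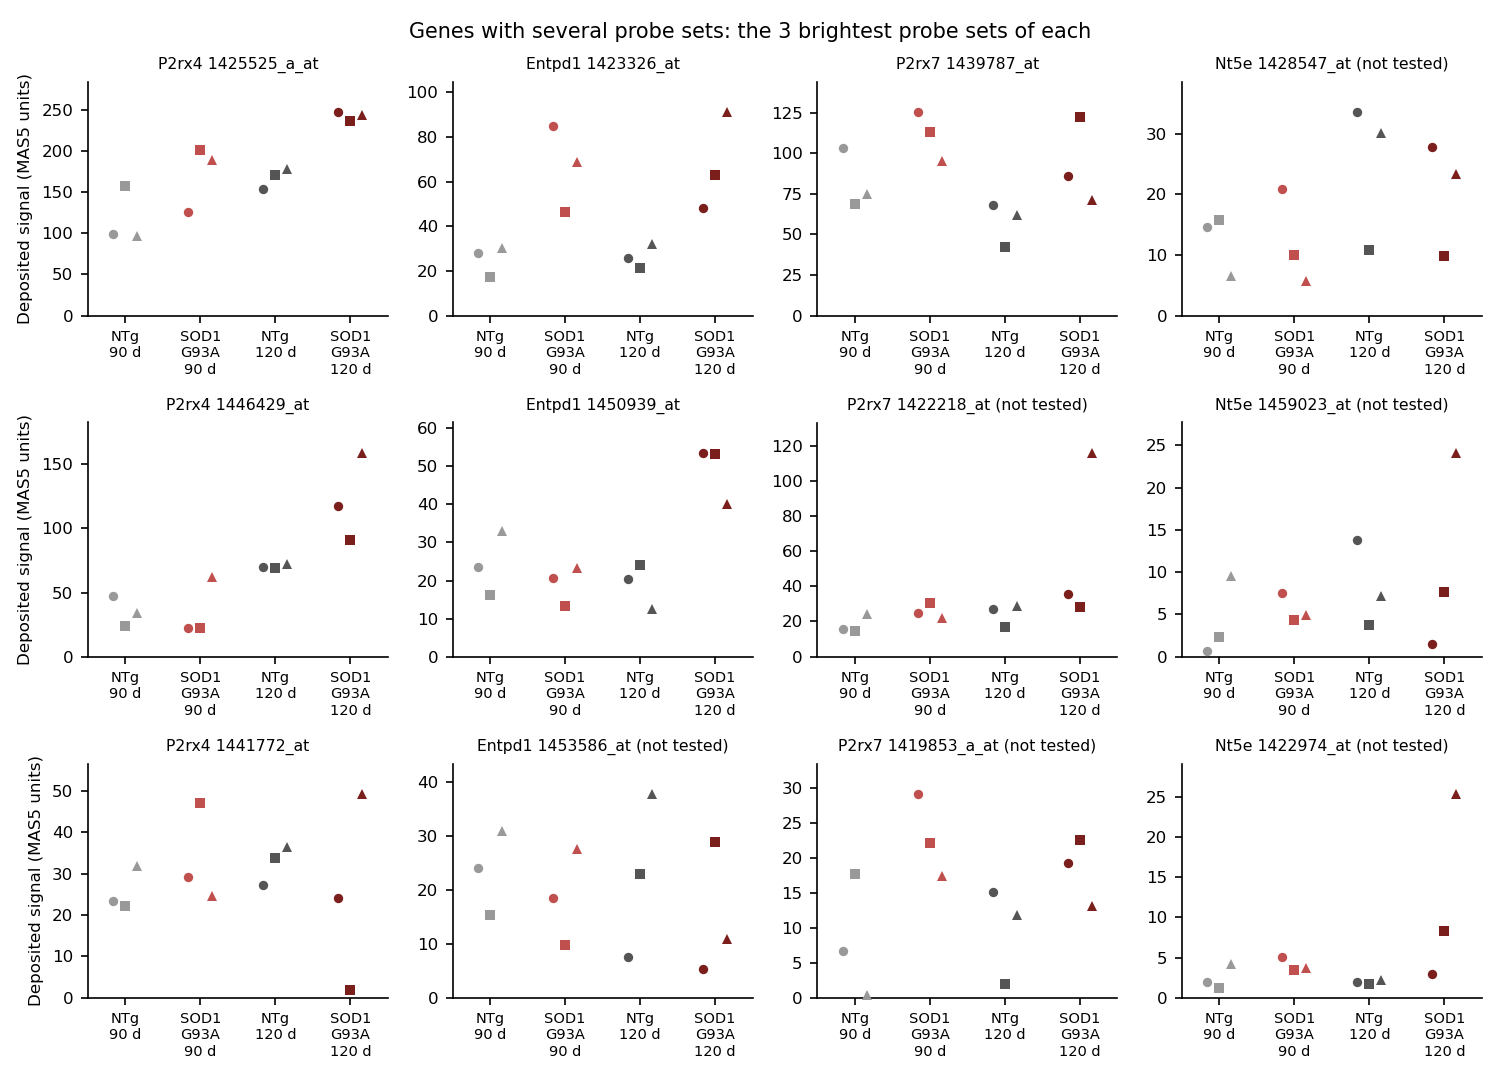
Deposited linear signals (MAS5 units) of the 3 brightest probe sets of P2rx4, Entpd1, P2rx7 and Nt5e on each array, in columns by gene, with the brightest at the top and points for samples 1 to 3 (circle, square and triangle). In the upper row the genotypes are apart for P2rx4 at 120 days and for Entpd1 at both ages. For these 2 genes the middle row is apart at 120 days only, and the lowest row overlaps at both ages. P2rx7 1422218_at and the 2 dimmer Nt5e probe sets have their highest point on SOD1 G93A sample 3 at 120 days.

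**Figure D3:**
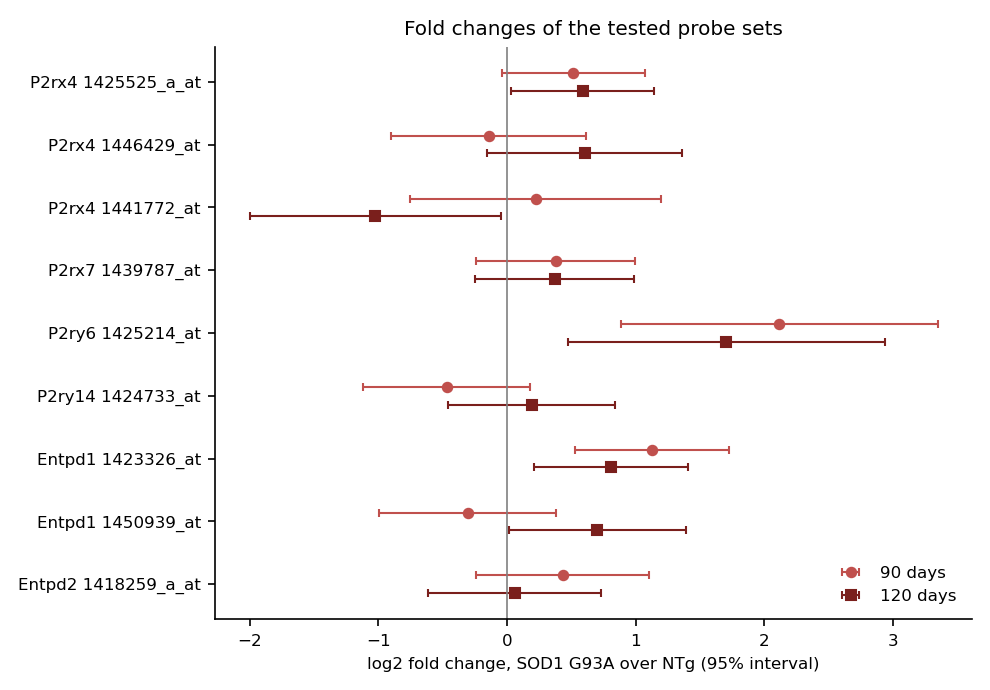
Log2 fold changes of SOD1 G93A over NTg mice for the 9 tested probe sets at 90 days (circles) and 120 days (squares), with 95% intervals from limma. The intervals of P2ry6 and Entpd1 1423326_at lie above 0 at both ages, while no probe set passed the adjusted threshold at either age.

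By the groups' arrays rather than by the test, 2 of the 9 tested probe sets (P2ry6 and Entpd1 1423326_at) were higher on every SOD1 G93A array than on every NTg array at 90 days, and none was lower on every array. Among all probe sets tested, 5.74% were higher in this way and 5.56% lower. At 120 days 4 of the 9 were higher on every array, namely P2ry6, Entpd1 1423326_at and 2 P2rx4 probe sets, and none was lower, beside 14% higher and 18.5% lower among all probe sets. By the study's rule of a 2-fold change with an unadjusted p under 0.05, P2ry6 and Entpd1 1423326_at passed as higher at 90 days, where 0.999% of all probe sets passed as higher and 0.769% as lower. At 120 days P2ry6 passed as higher and P2rx4 1441772_at as lower, beside 5.18% and 7.52% of all probe sets. As P2ry6 and Entpd1 1423326_at passed the filter mostly through SOD1 G93A arrays, these counts are a description only.

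The SOD1 G93A difference was not shown to change between the ages for any member. The difference of the log2 differences, 120 minus 90 days, ran from -1.25 for P2rx4 1441772_at to 1.01 for Entpd1 1450939_at, and the lowest limma adjusted p was 0.529. For P2ry6 it was -0.41 (SE 0.81) and for Entpd1 1423326_at -0.32 (SE 0.39). Of all probe sets tested, 0% were called in this contrast, neither higher nor lower, and Entpd1 1450939_at was the 1 member with an unadjusted p under 0.05, beside 9.24% of all.

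Age was compared within each genotype after normalization over all 12 arrays, and it cannot be told apart from when the mice were collected and the arrays processed. In SOD1 G93A mice P2rx4 1446429_at rose between 90 and 120 days by 1.51 on the log2 scale (SE 0.34, 2.85-fold, limma adjusted p = 0.0210). It was the 1 member probe set called, beside 3.06% of all probe sets called higher and 3.94% lower at 120 days. The call was lost without SOD1 G93A sample 1 or sample 2 at 90 days, with limma adjusted p-values of 0.0655 and 0.0886. The brightest P2rx4 probe set was 1.52-fold higher (limma adjusted p = 0.157), with all arrays apart. P2rx4 1441772_at went the other way, at a log2 difference of -1.17 (SE 0.43, limma adjusted p = 0.111), with every 120-day array lower. The P2rx4 probe sets thus did not agree on a direction with age. In NTg mice none of the 9 was called (lowest limma adjusted p = 0.247), beside 1.14% higher and 2.48% lower of all probe sets, and 1 had an unadjusted p under 0.05, P2rx4 1446429_at, at a log2 difference of 0.73. An unadjusted p under 0.05 was found for 19.9% of all probe sets in NTg mice and for 25.6% in SOD1 G93A mice, where 3 of the 9 members' probe sets had one.

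Markers also moved with age. In NTg mice 4 of 10 tested microglial markers, 2 of 11 astrocyte, 2 of 12 neuronal and 1 of 9 oligodendrocyte markers were called lower at 120 days and none higher. The microglial ones were Aif1, Tmem119, Csf1r and C1qa. Gfap, the intermediate filament of astrocytes, was 11.9-fold lower there (limma adjusted p = 0.00283). In SOD1 G93A mice 1 microglial marker was called higher and 1 lower, and 2 neuronal and 1 oligodendrocyte markers were called lower. The part of these cells in the age contrasts was not tested.

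On that common scale the 4 groups could be put in order for each gene. P2rx4 (1425525_a_at) ran from 6.97 ± 0.36 log2 units in NTg mice at 90 days through 7.43 ± 0.10 in NTg mice at 120 days and 7.45 ± 0.29 in SOD1 G93A mice at 90 days to 8.05 ± 0.11 in SOD1 G93A mice at 120 days (SD, n = 3). The first step, of 0.46, was about as wide as the SDs of its groups together, the middle groups did not differ beyond theirs, and the last step was wider than both SDs together. P2ry6 ran from 4.05 ± 0.24 in NTg mice at 120 days and 4.63 ± 1.55 in NTg mice at 90 days to 5.86 ± 0.69 in SOD1 G93A mice at 120 days and 6.67 ± 0.21 in SOD1 G93A mice at 90 days. No neighbours of P2ry6 were further apart than their SDs together.

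Entpd1 (1423326_at) had the same order of groups, from 5.05 ± 0.20 and 5.21 ± 0.21 in NTg mice at 120 and 90 days to 5.96 ± 0.33 and 6.24 ± 0.41 in SOD1 G93A mice. The step from the NTg to the SOD1 G93A groups was wider than the SDs together, and the ages within a genotype were not. P2rx7 (1439787_at) ran from 6.01 ± 0.20 in NTg mice at 120 days through 6.42 ± 0.58 in SOD1 G93A mice at 120 days and 6.55 ± 0.23 in NTg mice at 90 days to 6.90 ± 0.20 in SOD1 G93A mice at 90 days. None of these steps was wider than the SDs together. P2ry14 lay between 6.08 and 6.64 and Entpd2 between 7.45 and 7.86 in the 4 groups, with no neighbours apart.

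Markers of cell types were measured beside the members. The summed markers of microglia were higher on the same arrays as P2ry6 and the brightest Entpd1 probe set. So were the astrocyte markers Gfap, Aldh1l1 and Sox9, while the astrocyte marker S100b was lower on these arrays at both ages. Summed astrocyte markers overlapped between the genotypes at both ages. Markers of astrocytes, the labelled cell type, were present, with a summed signal of 15551 to 34560.3 over the 11 measured of 12 astrocyte genes, and Aldh1l1, the gene of the astrocyte enzyme ALDH1L1, read 109.2 to 428.6 on the arrays. Of 12 microglia and macrophage markers 11 were measured. Their summed signal was 2373.9 to 4768.7 on NTg and 6417.1 to 10552.7 on SOD1 G93A arrays at 90 days, and 1540 to 1675.4 against 8714.8 to 10769.3 at 120 days. Of the 10 tested, 2 were called higher at 90 days and 8 at 120 days, with median log2 differences of 1.32 and 1.83. Csf1r, the receptor that microglia need to survive, read 905.5 to 1014 in NTg and 3993.7 to 4203 in SOD1 G93A mice at 120 days, while Itgam was at 0.9 to 21.2 on all arrays. The part of these cells in the P2ry6, Entpd1 and P2rx4 values was not tested.

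Neuronal markers lay the other way. All 12 were measured, with a summed signal of 21111.4 to 26305.4 on NTg and 9921.1 to 15501.8 on SOD1 G93A arrays at 120 days, and 4 of 12 were called lower. At 90 days the sums were 24138.4 to 26995.6 and 18896.4 to 21102.5, with 0 called. By the mean log2 signal of the list in place of the sum, these groups overlapped, at 9.67 to 9.91 and 9.27 to 9.76. Of the 11 tested astrocyte markers 0 were called at 90 days. At 120 days 3 were called higher, namely Gfap (27.6-fold), Sox9 (2.88-fold) and Aldh1l1 (2.34-fold). These 3 were higher on every SOD1 G93A array than on every NTg array at 90 and 120 days, while S100b was lower. Of the 11, 7 were above 0 at each age. The oligodendrocyte, precursor and endothelial lists had 0 of 9, 0 of 4 and 0 of 6 tested genes called at both ages. Normalization set the oligodendrocyte gene Mbp to a log2 difference of 0 at both ages, so Mbp could not be called. As deposited, Mbp read 14035.3, 11515.7 and 12593.8 on NTg and 18606.2, 18185.7 and 29553.1 on SOD1 G93A arrays at 120 days. Summed oligodendrocyte markers were 24685.3 to 31456.8 on NTg and 38142.6 to 49614.4 on SOD1 G93A arrays at 120 days. At 90 days the sums overlapped, as did the list's mean log2 signals at both ages. Array medians ran from 24.9 to 55.2 and the mean correlation with the group's other arrays from 0.835 to 0.952, with SOD1 G93A sample 3 at 120 days at the far end of both.

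**Figure D4:**
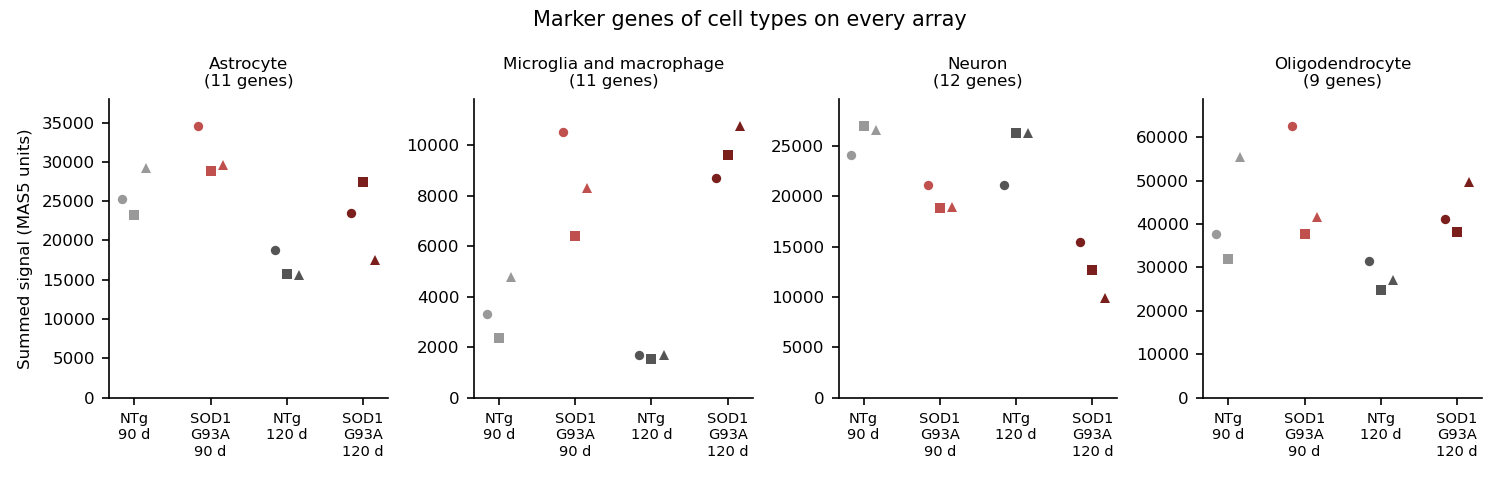
Summed deposited signal (MAS5 units) of marker genes of 4 cell types on each array, by group, with points for samples 1 to 3 (circle, square and triangle). Microglia and macrophage sums are higher on every SOD1 G93A array than on every NTg array at both ages, and neuronal sums are lower. Oligodendrocyte sums are higher on every SOD1 G93A array at 120 days but overlap at 90 days, and astrocyte sums overlap at both ages.

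A list of 39 further genes of purinergic signalling gave the surroundings of the members, and 24 of them were tested. At 90 days 0 of the 24 were called, beside 0.185% higher and 0.0401% lower among all genes, 10 were above 0 and the median log2 difference was -0.13, against 0.02 over 12458 genes taken by their brightest tested probe set. At 120 days 1 was called lower and 0 higher, beside 4.5% and 4.13% of all genes. The list's share called lower, 4.17%, was near that of all genes but rests on 1 gene. Of the 24, 11 were above 0, and the median was -0.13 against -0.08. By role, the 3 tested ATP-gated channels had a median of -0.38 at 90 days and -0.50 at 120 days, and the 3 tested P2Y receptors 0.39 and 0.32. The 6 genes listed as ectonucleotidases had -0.53 and -0.45. They are not all enzymes of the cell surface, Entpd7 for example being intracellular. The 7 genes of adenosine handling had 0.16 and -0.01, and the 5 genes of ATP release -0.22 and 0.08. None of the 3 adenosine receptors Adora2a, Adora2b and Adora3 could be tested.

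The gene called was Panx1, which encodes a channel through which cells release ATP. It read 97.3, 148.3 and 118.1 on NTg arrays and 84.5, 52.8 and 49.3 on transgenic arrays at 120 days, and 97.3, 99.7 and 76.7 against 78.3, 85.5 and 72.7 at 90 days. Its groups were apart at 120 days and overlapped at 90 days. It fell at 120 days by 1.11 on the log2 scale (SE 0.30, limma adjusted p = 0.0415), and the call was lost on leaving out any 1 of 5 of the 6 late-stage arrays, SOD1 G93A sample 1 being the exception, with adjusted p-values of 0.0636 to 0.181. Panx2, of the same family and found in neurons, had -1.07 (SE 0.33, limma adjusted p = 0.0672) and was called without SOD1 G93A sample 2 (limma adjusted p = 0.0172). The summed neuronal markers were lower on the same arrays, and their part in these values was not tested.

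Enpp3 and Entpd7 completed the 4 genes with the smallest p at 120 days. Enpp3, a nucleotide pyrophosphatase, read 27.9, 28.2 and 29.0 on NTg arrays and 11.0, 23.0 and 1.3 on transgenic arrays at 90 days, and 24.1, 1.7 and 15 against 32.8, 55.9 and 81.7 at 120 days. Its SOD1 G93A arrays were all lower at 90 days and all higher at 120 days. Among all probe sets tested, 5.56% were lower in this way at 90 days and 14% higher at 120 days. Enpp3 passed the filter only through NTg arrays at 90 days and SOD1 G93A arrays at 120 days. These are the groups where it was high, so its values are a description only. The log2 differences were -1.16 (SE 0.46) and 1.46 (SE 0.46), with a difference of 2.62 between the ages (limma adjusted p = 0.328). Without SOD1 G93A sample 3 at 90 days, which read 1.3, the first was -0.69, and without NTg sample 2 at 120 days, which read 1.7, the second was 0.94. Entpd7, an intracellular member of the Entpd family, read 187.1, 182.4 and 212.0 on NTg arrays and 110.9, 91.2 and 8.9 on transgenic arrays at 120 days, a log2 difference of -1.92 (SE 0.63, limma adjusted p = 0.0793) with sample 3 far below the others. Without SOD1 G93A sample 3 it was -0.93 (limma adjusted p = 0.121), with array weights -1.22 (limma adjusted p = 0.0633), and without sample 1 it was -2.52 and called (limma adjusted p = 0.0295).

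In the age contrasts 1 listed gene was called, Lrrc8a, an essential subunit of volume-regulated anion channels. It rose in NTg mice by 1.24 on the log2 scale (SE 0.30, limma adjusted p = 0.0388), from 304.4, 283.3 and 221.7 at 90 days to 588.7, 679.7 and 643.7 at 120 days. The call was lost without any 1 of the 6 NTg arrays, with adjusted p-values of 0.0926 to 0.123. Among all genes 1.23% were called higher and 2.28% lower in that contrast. P2ry12, the ADP receptor of resting microglia, read 15.4, 9.0 and 13.9 on NTg arrays and 42.1, 30.3 and 37.6 on transgenic arrays at 120 days. It was chosen after its values were seen, its arrays were apart, and its log2 difference of 0.70 was not called (limma adjusted p = 0.117).

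**Figure D5:**
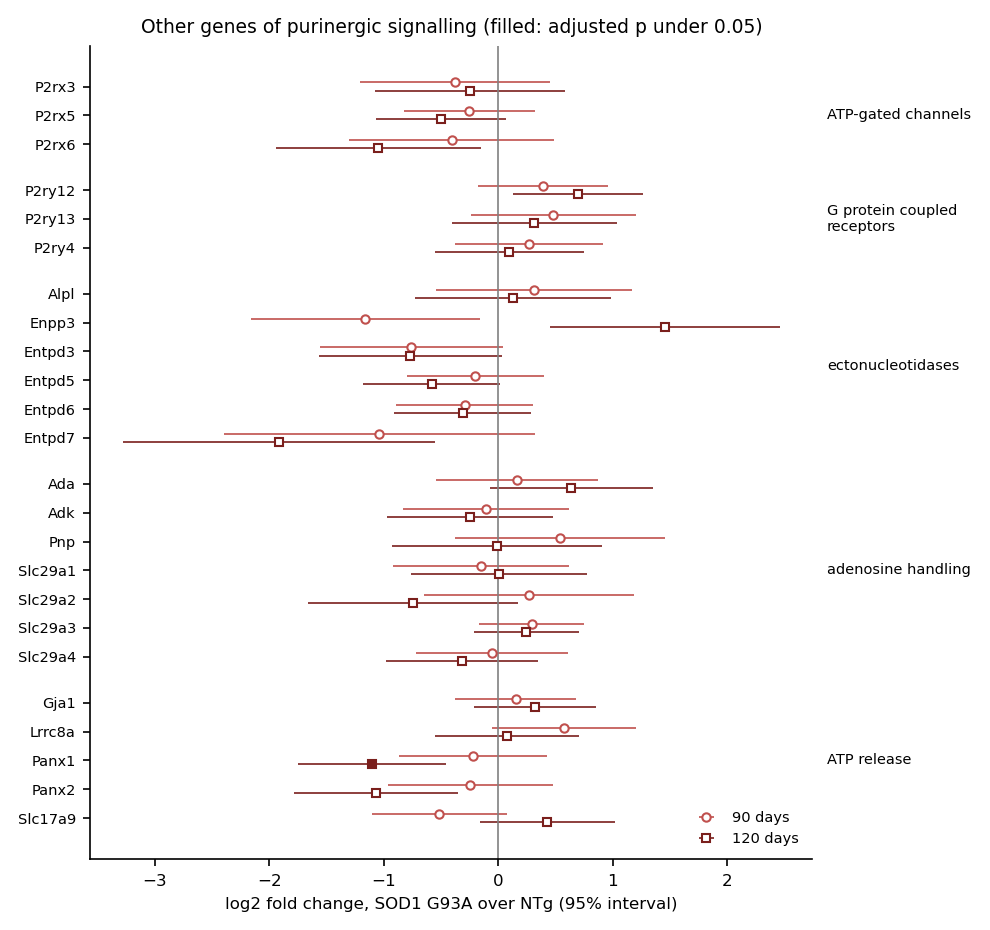
Log2 fold changes of SOD1 G93A over NTg mice for the 24 tested genes of the purinergic list, grouped by role, at 90 days (circles) and 120 days (squares) with 95% intervals from limma, filled where the adjusted p was under 0.05. The 1 filled point is Panx1 at 120 days, at -1.11.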

How the data were processed

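Expression was measured in 12 samples on Affymetrix Mouse Genome arrays after 2 rounds of linear amplification. The authors deposited linear intensities, which per the labels are MAS5 signals (version not given), and each array has a trimmed mean of 100 (2% of each tail). For differential expression the authors used the PLIER summary in GeneSpring, which was not used here. The labels give toluidine blue staining, and the methods ALDH1L1 staining. Background and present calls were not used here, and precision is limited by the number of arrays.

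An offset of 7 (20th percentile of all values) was added before log2, and the arrays were quantile normalized within each age, or over all 12 arrays for levels and for age contrasts. A fold is on this offset scale, which understates changes of dim probe sets. After 64 control probe sets were left out, 26132 probe sets above their array's median on at least 3 arrays were tested. limma 3.58.1 under R 4.3.3 fitted the means of the 4 groups, leaving 8 residual degrees of freedom, and moderated the variances (eBayes). Benjamini-Hochberg adjustment ran over all probe sets tested. Each sample is a separate mouse. Symbols came from GEO's platform annotation (34958 probe sets of 1 symbol, 932 of several, 9211 of none), with 0 symbols updated by gene ID. A gene stands by its brightest probe set of 1 symbol over all arrays. Positions and promoters are RefSeq's for GRCm38.p6, with promoters matched by symbol for 8 of 9 members.

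The members and lists were chosen with earlier results of these data known. Named were all members, listed genes that passed a test and the 4 listed genes with the smallest p at 120 days. The rule also asked for the genes most like each member that passed at either age, of which there were none. Of the 39 listed genes, Adora2a, Adora2b, Entpd4, Enpp1, Enpp2 and Slc28a2 had no probe set of 1 symbol, and P2rx1, P2rx2, P2ry2, P2ry10, P2ry10b, Adora3, Entpd8, Acpp and Panx3 were too dim. Markers of astrocytes, microglia, neurons, oligodendrocytes, their precursors and endothelium were summed without a test. Alternatives were the normalization, offset, filter, one age fitted alone, replicate block, array weights, prior, the study's fold rule, mean of a gene's probe sets and leaving out each array. The steps were tested on simulated data. Figures were drawn with matplotlib.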

Additional observations from a re-analysis of the deposited data

How the results depend on the processing

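The count of called members was recomputed under each alternative in the 5 contrasts. At 90 days it was 0, against 2 by the 2-fold rule, and 0 to 1 on leaving out each array. At 120 days it was 0, against 3 on the values as deposited, 1 with the offset at the median, 3 with array weights and 2 by the 2-fold rule, and 0 on leaving out each array. For the difference between the ages it was 0, against 1 by the 2-fold rule. For age in SOD1 G93A mice it was 1, against 2 on the values as deposited, 2 by the 2-fold rule and 0 to 2 on leaving out each array (0 without SOD1 G93A sample 1 or 2 at 90 days, 2 without sample 3 at 120 days). For age in NTg mice it was 0 under each alternative. Of the recomputed counts 71 were unmoved, 10 were higher and 2 lower, and the cause was not tested.

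With array weights the probe sets called at 120 days were P2ry6, P2rx4 1441772_at (log2 difference -1.34) and Entpd1 1450939_at (1.02), and as deposited they were P2ry6 (2.08), Entpd1 1423326_at (1.13) and Entpd1 1450939_at (1.12). The sign turned for P2rx4 1446429_at at 90 days on leaving out arrays (-0.56 to 0.078), for Entpd2 at 120 days with median centring (-0.34) and on leaving out arrays (-0.15 to 0.40), and for the difference between the ages of P2ry6 with array weights (0.76) and on leaving out arrays (-1.18 to 0.32). Median centring moved the median of all probe sets at 120 days to -0.33 and the calls from 940 higher and 1008 lower to 666 and 2834. Calls over all probe sets at 120 days were 1382 higher and 1046 lower as deposited. Panx1 was also not called with an offset of 1 (adjusted p = 0.0513), with no filter (0.0748) or with one age fitted alone (0.0958). Panx2, Enpp3 and Entpd7 were called at 120 days with the offset at the median (adjusted p = 0.0374, 0.0447 and 0.0269), and Lrrc8a was not called with median centring (0.145). That offset moved the log2 difference of P2ry6 at 120 days to 0.98 and that of Enpp3 to -0.51 at 90 days, 0.77 at 120 days and 1.28 between the ages, where an offset of 1 gave -1.82 at 90 days and 3.77 between the ages.

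Whether sample numbers shared between the groups pair the mice cannot be told from so few correlations. Those of same-numbered deviations were -0.27, 0.28 and -0.28 at 90 days and -0.07, 0.04 and -0.01 at 120 days. Those of differently numbered arrays ran from -0.36 to 0.46 at 90 days and from -0.05 to 0.06 at 120 days. With the replicate block 0 members were called at either age. All calls went from 36 to 17 at 90 days and from 1948 to 1063 at 120 days, and Panx1 was not called (adjusted p = 0.0867).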
